A study of Mus musculus with 6 samples.

Results

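The genes that respond to glucocorticoids in the mouse brainstem were examined through 10 transcripts chosen by symbol: the receptors Nr3c1 and Nr3c2, the targets Fkbp5, Sgk1, Tsc22d3, Zbtb16, Cdkn1a and Pdk4, and the metallothioneins Mt1 and Mt2. All 10 were among the 18058 genes of the deposited table, and all 10 were among the 16762 genes that were tested, those averaging 0.1 CPM (a gene's reads scaled to a common library size) or more. Total RNA came from snap-frozen whole brainstems of uninjected 1-month-old mice, with 3 animals of the wild type (WT) strain C57BL/6J and 3 of genotype Rag1-/-, each library from an independent mouse. Rag1 encodes a subunit of the V(D)J recombinase, and mice without it lack mature T and B cells throughout the body. The Rag1-/- strain listed in the study's methods is B6.129S7-Rag1tm1Mom/J, a whole-body allele made on a 129 background. None of the 10 genes lies on chromosome 2, which carries Rag1. The study compared these brainstems to look for transcripts that differ in a host that accepts human low-grade glioma cells.

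Glucocorticoids (corticosterone in mice) bind the glucocorticoid receptor, encoded by Nr3c1, and the mineralocorticoid receptor, encoded by Nr3c2, which is the higher-affinity of the pair. The bound receptor enters the nucleus and binds inverted-repeat response elements, and in brain it induces a small set of transcripts, among them Fkbp5, a co-chaperone that lowers the hormone binding of its own receptor. Several of these transcripts also answer to other signals: the metallothioneins to zinc, Cdkn1a to p53, Pdk4 to fasting, and Sgk1 to osmotic and growth factor signals.

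Promoters of 3 genes are shown because each holds letters of an element through which its gene is known to be induced. RefSeq promoter windows (GRCm38.p6, from 250 bases before to 50 bases after an annotated start) were found for 8 of the 10 genes, in 16 windows, and not for Nr3c1 and Zbtb16. The palindromic glucocorticoid response element, AGAACA and its reverse complement TGTTCT with any 3 bases between them, was present in 3 of 32851 windows of the genome (0.00913%), and 1 of these was a promoter of Sgk1. Its relaxed form, GNACA and TGTNC with any 3 bases between them, was in 0.475% of all windows, and in those of Sgk1 and Mt1 among the members. The single arm AGAACA, searched on both strands, was in 19.0% of all windows and in windows of Sgk1 and Tsc22d3, and the palindromic element contains this arm in both orientations. The core of the metal response element, TGCACNC or TGCGCNC on either strand, was in 25.7% of all windows and in windows of Mt1, Mt2, Nr3c2 and Sgk1. In the Sgk1 sequence capitals mark the palindromic element, and in the Mt1 and Mt2 sequences they mark the metal response element cores, each sequence running 5′ to 3′ on the plus strand.
Sgk1 promoter (chr10:21993640-21993939): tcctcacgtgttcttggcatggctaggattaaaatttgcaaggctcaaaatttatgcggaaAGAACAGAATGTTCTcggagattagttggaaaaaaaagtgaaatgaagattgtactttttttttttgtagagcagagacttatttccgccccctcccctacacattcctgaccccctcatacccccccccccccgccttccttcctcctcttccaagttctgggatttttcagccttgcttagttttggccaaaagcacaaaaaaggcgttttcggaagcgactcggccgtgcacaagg
Mt1 promoter (chr8:94178839-94179138): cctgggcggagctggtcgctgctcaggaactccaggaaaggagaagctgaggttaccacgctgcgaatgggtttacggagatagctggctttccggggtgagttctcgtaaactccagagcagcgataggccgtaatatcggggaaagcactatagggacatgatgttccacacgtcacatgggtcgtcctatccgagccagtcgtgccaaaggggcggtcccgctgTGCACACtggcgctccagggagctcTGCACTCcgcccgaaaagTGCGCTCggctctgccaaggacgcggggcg
Mt2 promoter (chr8:94172368-94172667): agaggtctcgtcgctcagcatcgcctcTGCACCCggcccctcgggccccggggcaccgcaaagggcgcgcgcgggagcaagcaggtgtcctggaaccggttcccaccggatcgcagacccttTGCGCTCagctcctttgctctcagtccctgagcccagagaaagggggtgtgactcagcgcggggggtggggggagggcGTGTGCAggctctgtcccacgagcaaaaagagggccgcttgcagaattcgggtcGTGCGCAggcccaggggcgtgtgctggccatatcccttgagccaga
The Sgk1 element begins at position -189 from the start of this promoter, which is 1 of 6 annotated starts of the gene and lies 776 bases before the most downstream one. Mt1 held 3 metal response element cores and Mt2 held 4, and those after the annotated start lie in transcribed sequence only where that start is used. The windows of Fkbp5, Cdkn1a and Pdk4 held none of the 4 motifs. The deposited values are per gene, so that use of a given start was not measured.

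The libraries had an estimated depth of 31600000 to 46400000 reads, so that the lowest member, Pdk4, rested on about 178 to 347 reads per library. The level of the targeted gene went against the labels: Rag1 reads were at 2.60 to 4.02 CPM under the Rag1-/- label and at 0.115 to 0.388 CPM under the WT label, and the direction of every difference below rests on that label, by which the Rag1-/- group is named. The values are per gene, so that reads from a part of Rag1 that the allele leaves in place cannot be told apart from reads of an intact gene, and this level alone does not settle the labels. Xist, which is transcribed from the inactive X chromosome of females, reached 172 CPM in WT replicate 1 and 177 CPM in WT replicate 2, whereas the other 4 libraries had 0.462 to 2.93 CPM. In every fit without WT replicate 3, genotype and Xist level therefore cannot be told apart. WT replicate 3 also held pituitary transcripts: the 9 markers of the gland in the table summed to 659.7 CPM there, to 57.6 CPM in WT replicate 2, to 3.59 CPM in WT replicate 1 and to 2.83 to 5.64 CPM in those labelled Rag1-/-. Neuronal and oligodendrocyte markers were abundant in every library, with summed levels of 4670 to 5003 CPM and 20120 to 27241 CPM. As these are bulk tissue samples, fewer cells of a type and less RNA per cell cannot be told apart.

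Levels between genes were compared per kilobase of exon, from the union of exons in the GENCODE annotation of the same build. Mt2 and Mt1, small cysteine-rich proteins that bind zinc, were the most abundant at 464 ± 62.3 and 451 ± 33.4 CPM per kb (SD, n = 6), and their ranges over the libraries overlapped. Before division by length Mt2 averaged 273 CPM and Mt1 562 CPM. Their closeness per kb thus rests on the exon lengths used, 0.588 kb for Mt2 and 1.246 kb for Mt1. Tsc22d3, also called Gilz, a leucine zipper protein that carries anti-inflammatory effects of glucocorticoids, followed at 53.4 ± 3.56 CPM per kb without overlap to either neighbour. Sgk1, Cdkn1a, Nr3c1, Zbtb16 and Fkbp5 followed at means of 23.5, 12.98, 10.1, 8.15 and 6.18 CPM per kb, their ranges overlapping from each to the next in that order. The lowest were Nr3c2 at 2.49 ± 0.175 and Pdk4 at 1.91 ± 0.247 CPM per kb, which did not overlap each other. Per kilobase, the glucocorticoid receptor transcript was above the mineralocorticoid receptor transcript in every library.

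No member had an adjusted p under 0.05 between the genotypes (limma-trend on log2(CPM + 0.1), Benjamini-Hochberg adjustment over 16762 genes), against 8 of all tested genes (0.0477%). At an unadjusted p of at most 0.05, 2 of 10 members passed (11.6% of all tested genes), Sgk1 and Pdk4, both lower in the libraries labelled Rag1-/-, where 9.29% of all tested genes passed in that direction and 2.27% in the other. This split of all genes moved with the scaling, to 4.13% lower and 5.05% higher after median-of-ratios rescaling, under which Sgk1 alone of the members passed (9.18% of all tested genes in either direction) and no member had an adjusted p under 0.05 (0.0358%). The median log2 fold change of the members was -0.14, beside -0.05 over all tested genes. The members are given below by their role.

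**Figure D1:**
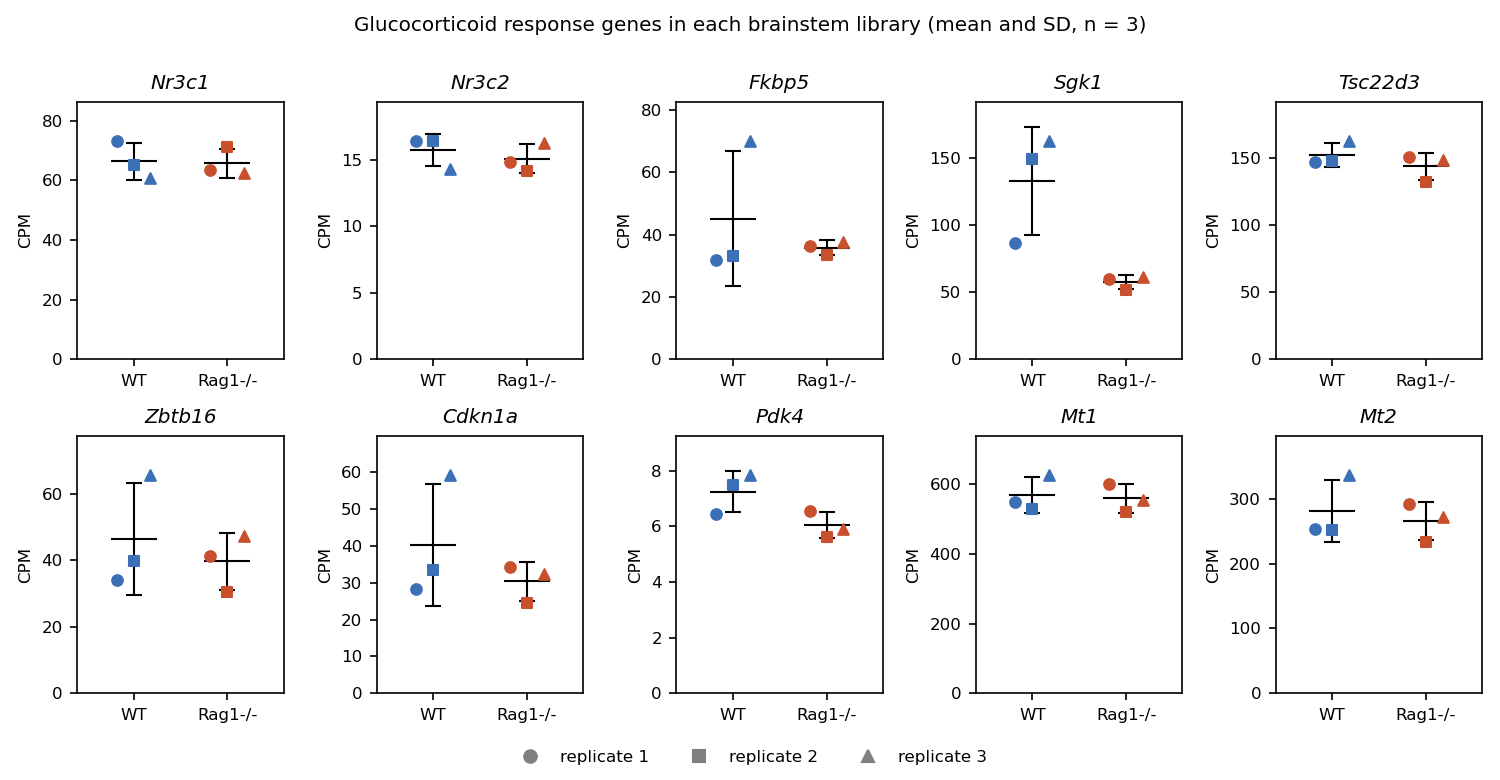
Level of each of the 10 genes in CPM (linear axes from 0) in WT and Rag1-/- brainstem libraries, with symbols for the replicate number and black bars for the mean and SD (n = 3). Sgk1 is between 86.7 and 163 CPM in WT and between 51.8 and 60.9 CPM in Rag1-/-, while WT replicate 3 (triangle) stands above the other 5 libraries for Fkbp5, Zbtb16 and Cdkn1a.

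The receptor transcripts differed little between the genotypes. Nr3c1 (chromosome 18, 39410545 to 39487245, minus strand, mm10) was at 73.3 CPM in replicate 1, 65.1 CPM in replicate 2 and 60.8 CPM in replicate 3 of WT, and at 63.5, 71.3 and 62.5 CPM in the same order in the Rag1-/- group. The groups overlapped throughout, with the highest and the lowest library both WT. The log2 fold change of Nr3c1 (Rag1-/- minus WT) was -0.01 (standard error, SE, 0.08, limma-trend adjusted p = 0.964), and its sign turned to 0.03 with median-of-ratios rescaling. Nr3c2 (chromosome 8, 76902508 to 77243639, plus strand) was at 16.4, 16.4 and 14.3 CPM in WT, and at 14.8, 14.1 and 16.3 CPM in the Rag1-/- group. Its groups overlapped, with a log2 fold change of -0.06 (SE 0.08, limma-trend adjusted p = 0.80). Without WT replicate 3, Nr3c2 did not overlap between the groups and its log2 fold change was -0.12, with an adjusted p of 0.567 by limma-trend. In that setting 30.8% of all tested genes did not overlap, 23.3% lower and 7.51% higher.

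Sgk1, a kinase that raises ion channel and transporter activity at the cell surface and is induced by glucocorticoids in oligodendrocytes, showed the largest difference of the 10 genes. Sgk1 (chromosome 10, 21882184 to 21999902, plus strand) was at 86.7 CPM in replicate 1, 149 CPM in replicate 2 and 163 CPM in replicate 3 of WT, and at 59.7, 51.8 and 60.9 CPM in the same order in the Rag1-/- group. Every WT library was above every library labelled Rag1-/-, and the WT libraries differed more among themselves (133 ± 40.5 CPM) than the others did (57.5 ± 4.96 CPM, SD, n = 3 each). Sgk1 was the only member without overlap between the groups, which 14.4% of all tested genes showed in the lower and 3.98% in the higher direction. The log2 fold change of Sgk1 was -1.16 (SE 0.20), a 2.23-fold lower level, with an unadjusted p of 0.000346 and an adjusted p of 0.211 by limma-trend. By exact permutation of the labels (two-sided) the p of Sgk1 was 0.1, which 3 samples against 3 cannot go below. The difference did not rest on WT replicate 3 alone, since without it the log2 fold change was -0.99 (unadjusted p = 0.000759, limma-trend adjusted p = 0.180). The WT libraries in that setting were both high in Xist, so that genotype and Xist level could not be told apart there. WT replicate 1, the lowest of its group, decided the adjusted value: without it the log2 fold change was -1.44 and the adjusted p 0.00051 by limma-trend. The adjusted p ranged from 0.00051 to 0.639 over the alternatives. Among the 4 libraries with low Xist, Sgk1 was at 163 CPM in WT replicate 3 and at 51.8 to 60.9 CPM in the libraries labelled Rag1-/-.

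Oligodendrocyte markers differed in the other direction. Of 10 such markers, 9 had an unadjusted p of at most 0.05 and were higher in the libraries labelled Rag1-/- (2.27% of all tested genes in that direction), none had an adjusted p under 0.05, and the median log2 fold change was 0.25. Their summed level was 20120 to 23378 CPM in WT and 25969 to 27241 CPM in the libraries labelled Rag1-/-. The WT library with the lowest Sgk1 was also the one with the lowest sum of the oligodendrocyte markers and of the pituitary markers, and the part of these in the Sgk1 result was not tested.

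Fkbp5, Zbtb16 and Cdkn1a were highest in 1 WT animal and overlapped between the genotypes. Fkbp5 (chromosome 17, 28398753 to 28486149, minus strand) was at 31.8 CPM in replicate 1, 33.3 CPM in replicate 2 and 70.1 CPM in replicate 3 of WT, and at 36.4, 33.3 and 37.8 CPM in the same order in the Rag1-/- group. WT replicate 3 was 1.85 times the highest other library, a ratio that 0.847% of all tested genes reached, while the other WT libraries lay below the libraries labelled Rag1-/-. The log2 fold change of Fkbp5 was -0.23 (SE 0.26, limma-trend adjusted p = 0.748) and turned to 0.14 (SE 0.06, unadjusted p = 0.0645, limma-trend adjusted p = 0.455) without WT replicate 3.

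Zbtb16, a zinc finger transcription factor also called Plzf (chromosome 9, 48654297 to 48835945, minus strand), was at 34.0, 39.8 and 65.6 CPM in WT, and at 41.4, 30.5 and 47.2 CPM in the Rag1-/- group. Its highest level was again in WT replicate 3, at 1.39 times the next library, and the other 5 libraries were mixed by genotype. The log2 fold change of Zbtb16 was -0.19 (SE 0.24, limma-trend adjusted p = 0.772) and 0.09 without WT replicate 3. Cdkn1a, which encodes the cell cycle inhibitor p21 (chromosome 17, 29090979 to 29100722, plus strand), was at 28.2, 33.4 and 59.1 CPM in WT, and at 34.1, 24.4 and 32.4 CPM in the Rag1-/- group. WT replicate 3 was 1.73 times the highest other library. The log2 fold change of Cdkn1a was -0.35 (SE 0.25, limma-trend adjusted p = 0.598) and -0.03 without WT replicate 3.

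Tsc22d3 and Pdk4 spanned narrower ranges. Tsc22d3 (chromosome X, 140539529 to 140600522, minus strand) was at 147, 147 and 163 CPM in WT, and at 150.4, 132 and 148 CPM in the Rag1-/- group. The groups overlapped, with a log2 fold change of -0.09 (SE 0.06, limma-trend adjusted p = 0.607). Pdk4, a kinase that inhibits pyruvate dehydrogenase and so spares glucose (chromosome 6, 5483351 to 5496278, minus strand), was at 6.44, 7.47 and 7.85 CPM in WT, and at 6.56, 5.64 and 5.92 CPM in the Rag1-/- group. The lowest WT library was below the highest library labelled Rag1-/-, and counting error alone was 5.37% to 7.50% of each Pdk4 value. The log2 fold change of Pdk4 was -0.26 (SE 0.10), with an unadjusted p of 0.0369 and an adjusted p of 0.408 by limma-trend. The unadjusted p of Pdk4 was 0.110 without WT replicate 3 and 0.0754 with median-of-ratios rescaling.

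The metallothioneins lie side by side on the plus strand of chromosome 8, Mt2 at 94172618 to 94173567 and Mt1 at 94179089 to 94180327, and as paralogs can share reads. Mt1 was at 548, 527 and 625 CPM in WT, and at 600.5, 520.4 and 553 CPM in the Rag1-/- group. Mt2 was at 254, 252 and 336 CPM in WT, and at 292, 233 and 271 CPM in the Rag1-/- group. For both genes WT replicate 3 was highest, replicate 1 labelled Rag1-/- next and replicate 2 labelled Rag1-/- lowest. The log2 fold changes were -0.02 for Mt1 (SE 0.08, limma-trend adjusted p = 0.934) and -0.07 for Mt2 (SE 0.12, limma-trend adjusted p = 0.828). Both turned positive, to 0.05 and 0.06, without WT replicate 3, and to 0.03 and 0.02 without replicate 2 labelled Rag1-/-. That of Mt1 also turned positive with median-of-ratios rescaling, to 0.02.

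**Figure D2:**
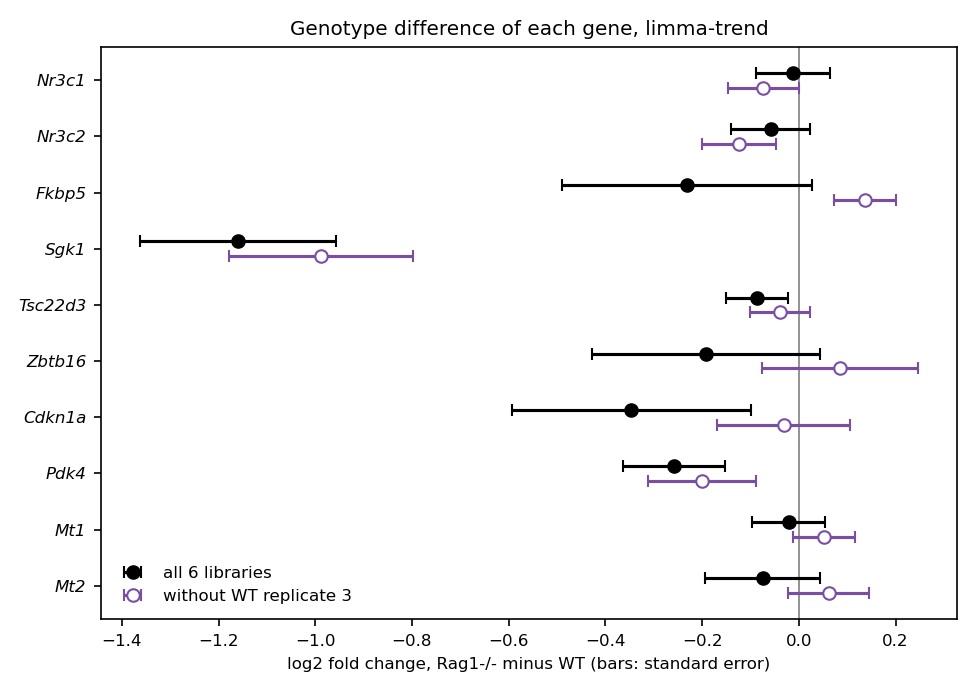
Log2 fold change of each of the 10 genes (Rag1-/- minus WT, limma-trend, bars show the standard error) with all 6 libraries (filled) and without WT replicate 3 (open). Sgk1 stays near -1 in both, while Fkbp5, Zbtb16, Mt1 and Mt2 change sign.

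The libraries were then compared by their rank for each gene, as a description without a test. WT replicate 3 held the highest value of 8 of the 10 members (28.7% of all tested genes were highest there), the exceptions being the receptors. For Nr3c1 it held the lowest value, and for Nr3c2 the second lowest. Replicate 2 labelled Rag1-/- held the lowest value of 8 of the 10 members (19.3% of all tested genes were lowest there), and its Nr3c1 was the second highest.

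Of the tested genes outside the members, the 5 nearest to Fkbp5 over the 6 libraries, by Euclidean distance between z-scores of log2(CPM + 0.1), were Nxn (0.165), Rps6kb2 (0.167), Crispld2 (0.226), Rara (0.233) and Irf8 (0.259). Each was highest in WT replicate 3, at 1.14 to 1.32 times the next library, against 1.85 times for Fkbp5. Of the members, Cdkn1a was nearest to Fkbp5 at 0.796, and 0.799% of the tested genes were nearer than it. Zbtb16 and Mt2 followed at 0.992 and 1.09, and the farthest was Nr3c1 at 4.09.

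Other glucocorticoid-induced genes, 28 in number of which 27 were tested, were then counted. This list was chosen with earlier results of these data known, so that its counts are a description and not an independent check. At an unadjusted p of at most 0.05, 12 of 27 were lower in the libraries labelled Rag1-/- (9.29% of all tested genes) and 0 were higher, 13 of 27 did not overlap between the groups in the lower direction (14.4% of all tested genes), and the median log2 fold change was -0.22. None had an adjusted p under 0.05 by limma-trend, with 0.254 as the lowest. The 12 included Dusp1, a phosphatase that switches off MAP kinases, with a log2 fold change of -0.36 (SE 0.08), an unadjusted p of 0.00117 and an adjusted p of 0.254 by limma-trend. Dusp1 was at 19.8, 21.2 and 21.1 CPM in WT, and at 15.4, 17.9 and 15.3 CPM in the Rag1-/- group, without overlap. Nfkbia, the inhibitor of NF-kappaB, had a log2 fold change of -0.50, Cebpd, a transcription factor, of -0.48, Ddit4, an inhibitor of mTORC1, of -0.31, and Angptl4, an inhibitor of lipoprotein lipase, of -0.78, each without overlap between the groups. Several of these genes are also induced by neuronal activity, inflammation or low oxygen.

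Without WT replicate 3, 10 of the 27 were lower at an unadjusted p of at most 0.05 (9.29% of all tested genes) and 1 was higher (2.33%), although the median log2 fold change was nearer to 0, at -0.11. With median-of-ratios rescaling 9 were lower (4.13% of all tested genes) and 0 higher. With ordinary per-gene variance only 3 of the 27 were lower (8.35% of all tested genes). WT replicate 3 held the highest value of 22 of the 27, and was at least 1.5 times the next library for 3 of them and for 2 of the members, against 1.75% of all tested genes. The 3 were Angptl4, Plin4 and Arrdc2, the last pair named after their values were seen. The pituitary markers were also highest in WT replicate 3 and their part in these levels was not tested.

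**Figure D3:**
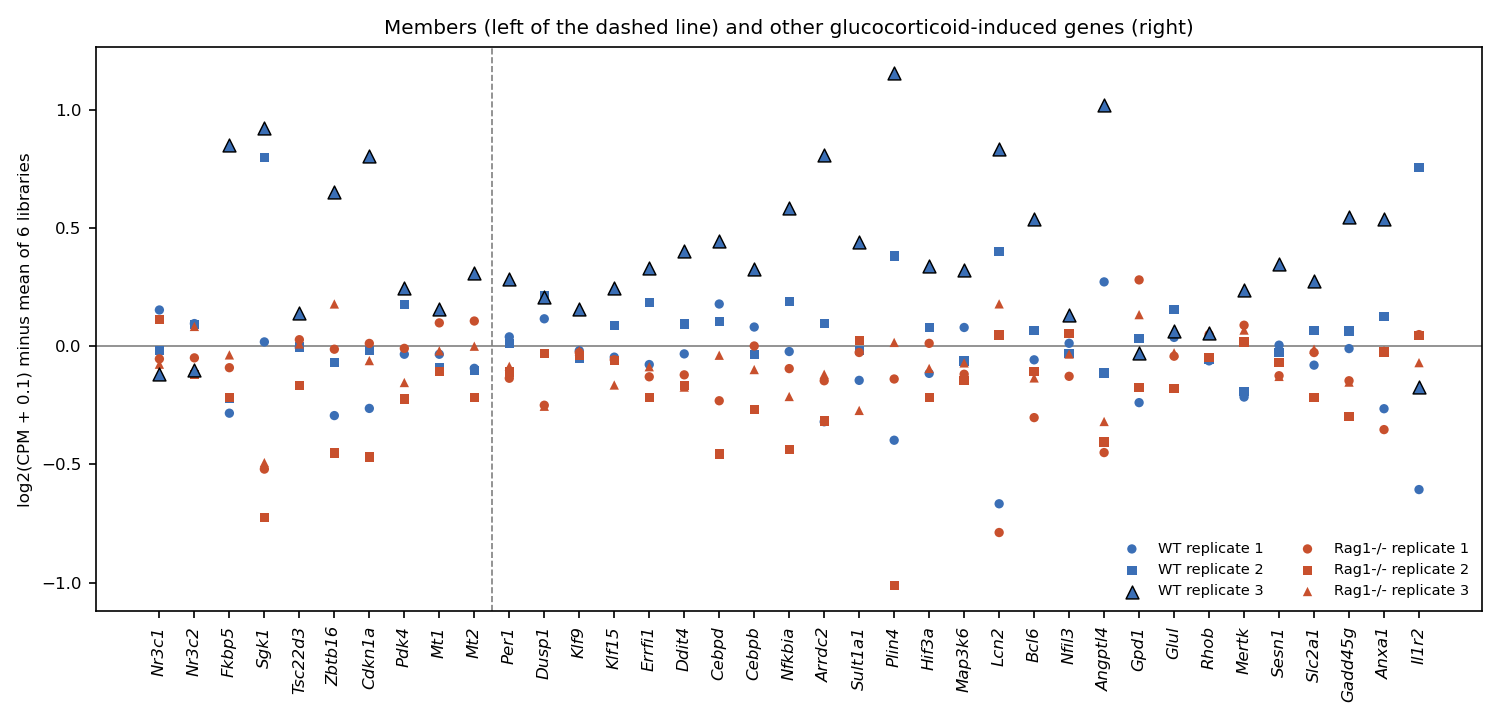
Each library's log2(CPM + 0.1) minus the mean of the 6 libraries, for the 10 members (left of the dashed line) and 27 other glucocorticoid-induced genes (right), with blue for WT and red for Rag1-/-. WT replicate 3 (large outlined triangles) is highest for 8 of the 10 members and 22 of the 27 others, and lowest for Nr3c1.

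**Figure D4:**
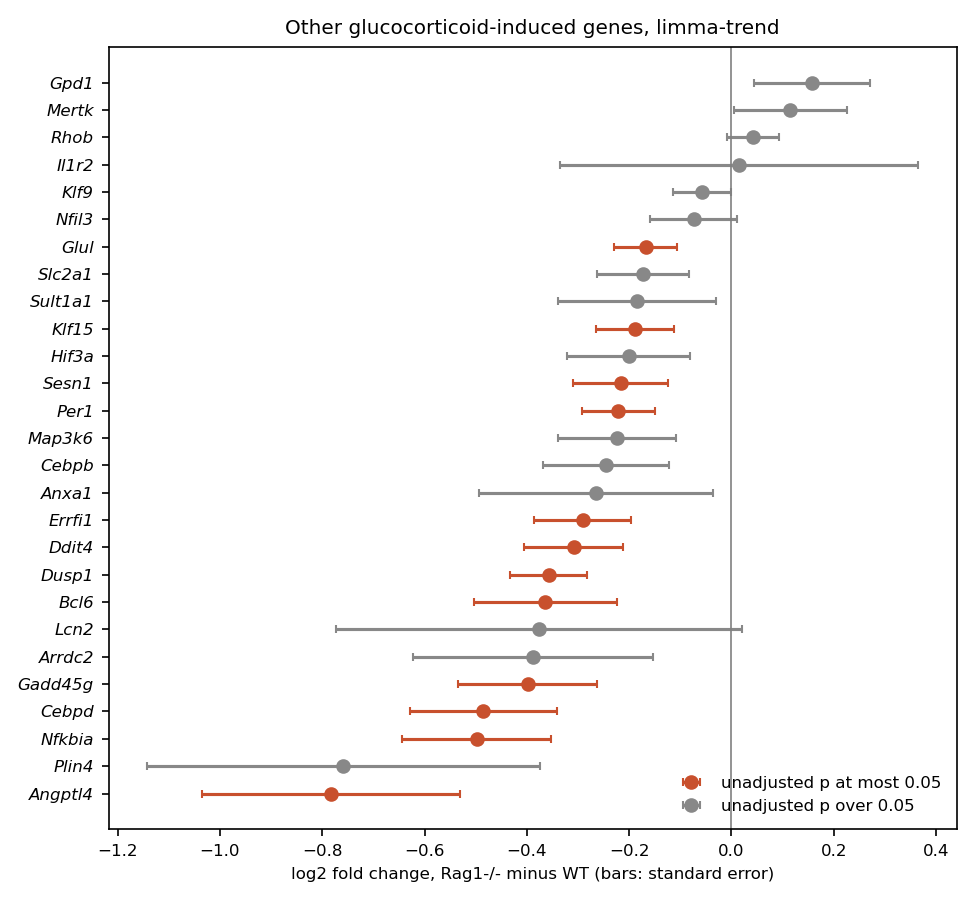
Log2 fold change (Rag1-/- minus WT, limma-trend, bars show the standard error) of the 27 tested genes of the list of other glucocorticoid-induced genes, with those at an unadjusted p of at most 0.05 in red. All 12 of these are on the negative side, from -0.78 to -0.17, in a list chosen with earlier results of these data known.

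The machinery around the receptors was described in the same way. Of 10 receptor chaperones, 3 were lower at an unadjusted p of at most 0.05 (9.29% of all tested genes) and 0 higher (2.27%), namely Hspa4 (log2 fold change -0.14), Dnajb1 (-0.12) and Fkbp4 (-0.10), the last a co-chaperone that acts opposite to Fkbp5 on the receptor, and the median was -0.05. Of 10 coregulators, 3 were lower (9.29% of all tested genes) and 0 higher, namely Ncoa2 (-0.15), Ncoa1 (-0.10) and Ep300 (-0.17), with a median of -0.11. After median-of-ratios rescaling 1 chaperone and 1 coregulator were lower (4.13% of all tested genes). With a library left out, 1 to 3 chaperones were lower, with 1 without WT replicate 1 or without replicate 1 or 2 labelled Rag1-/-, and 1 to 4 coregulators, with 1 without WT replicate 3 or replicate 1 labelled Rag1-/-, where 5.2% to 9.75% of all tested genes were lower, so that 1 of 10 was near the share of all genes. Among 7 tested genes of steroid metabolism and transport, 1 was higher (2.27% of all tested genes) and 0 lower. After median-of-ratios rescaling 2 of the 7 were higher (5.05% of all tested genes). The higher gene of the main fit was Srd5a1, the reductase that acts on corticosterone and on the precursors of neurosteroids. Srd5a1 was at 31.6, 31.6 and 32.0 CPM in WT, and at 36.8, 40.6 and 38.9 CPM in the Rag1-/- group. The groups of Srd5a1 did not overlap, and its log2 fold change was 0.29 (SE 0.05, unadjusted p = 0.000377, limma-trend adjusted p = 0.211).

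Among 7 tested genes that glucocorticoids repress, none passed at an unadjusted p of at most 0.05 by limma-trend (11.6% of all tested genes), a share of so few genes that is near that of all genes. The most abundant were Pomc and Avp, hormone precursors of the pituitary and hypothalamus, at 246 and 85.2 CPM in WT replicate 3 and at no more than 3.19 and 4.61 CPM in the other 5 libraries. Their log2 fold changes of -2.59 and -2.61 (SE 1.502 and 1.399) therefore rested on that library and were -0.40 and -0.84 without it.

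Lists for the other signals that act on single members were also counted, at the same unadjusted p, which 9.29% of all tested genes passed as lower and 2.27% as higher. Of 8 zinc response genes 1 was lower, the zinc importer Slc39a10 (-0.18), and 0 were higher. Of 12 p53 target genes 4 were lower and 0 higher, Plk2 (-0.29), Pmaip1 (-0.49), Btg2 (-0.32) and Trp53inp1 (-0.20). Of 13 PPAR and fasting genes 2 were lower and 0 higher. They included Txnip, which restrains glucose uptake and is also a glucocorticoid target. Txnip was at 24.3, 19.3 and 30.4 CPM in WT, and at 13.9, 12.6 and 14.2 CPM in the Rag1-/- group, without overlap. Its log2 fold change was -0.84 (SE 0.14, limma-trend adjusted p = 0.193). With a library left out, the lowest limma-trend adjusted p of the fasting list ranged from 0.0247 (without WT replicate 2) to 0.639 (without replicate 1 labelled Rag1-/-). The medians of the zinc, p53 and fasting lists were -0.03, -0.03 and -0.02. The shares of the zinc and fasting lists were near that of all tested genes. After median-of-ratios rescaling 0 zinc, 3 p53 and 2 fasting genes were lower (4.13% of all tested genes).

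WT replicate 3 was the only WT library with low Xist, so that leaving it out makes genotype and Xist level coincide. When high Xist (over 100 CPM) was added to the model, the genotype difference rested on that library against the 3 labelled Rag1-/-, and 7 of 10 members then had an unadjusted p of at most 0.05, all lower (12.3% of all tested genes, and 3.96% higher). In this fit the log2 fold change was -0.97 for Fkbp5 (adjusted p = 0.00584) and -1.503 for Sgk1 (adjusted p = 0.0403), both by limma-trend with the lone WT library assumed to vary like the others. In the same fit 8 of 8 pituitary markers were lower at an unadjusted p of at most 0.05, 4 of them with an adjusted p under 0.05 by limma-trend, with a median log2 fold change of -4.95, while 5 of 10 choroid plexus markers were higher, with a median of 0.20. The part of these tissues in the members' values was not tested.

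Markers of the remaining cell types were given by the range of their summed levels. Astrocyte markers (10 genes) were at 4463 to 4796 CPM in WT, and 4818 to 4989 CPM in the Rag1-/- group, with 1 of 10 higher at an unadjusted p of at most 0.05. Endothelial markers were at 306 to 378 and 341 to 362 CPM, with 1 of 10 lower, and microglia markers at 311 to 339.6 and 306 to 329.7 CPM, with none. Choroid plexus markers were at 986 to 2015 and 1139 to 1239 CPM, with 3 of 10 lower, and were lowest in WT replicate 3. Neuron markers were at 4797 to 5003 and 4670 to 4888 CPM, with none. Red blood cell markers (8 genes) were at 647 to 1883 and 898 to 1442 CPM, with 1 of 8 higher, and were highest in WT replicate 3. Of the 8 tested pituitary markers, 4 were lower. These counts stand beside 9.29% lower and 2.27% higher of all tested genes. Without WT replicate 3 (9.29% and 2.33% of all tested genes), 10 of 10 choroid plexus markers were lower, all without overlap and 1 with an adjusted p under 0.05 (0.017 by limma-trend). In that setting 5 of 10 endothelial and 1 of 8 pituitary markers were lower, 4 of 8 red blood cell markers and 7 of 10 oligodendrocyte markers were higher, and 0 of 10 astrocyte markers passed. The part of these cell types in the members' levels was not tested.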

How the data were processed

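RNA of 6 brainstem libraries (3 WT, 3 Rag1-/-) was sequenced on an Illumina HiSeq. The authors aligned reads to mm10 with STAR 2.5.3a, quantified them against RefSeq transcripts with Partek Flow, and the values the authors deposited are CPM, with 0.0001 as the lowest value of each library. Ends are printed as 1 base before the deposited stop, since 70.9% of 10271 genes with a RefSeq start had a stop 1 base past the RefSeq end.

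The CPM of 1 read was estimated from steps among low values. As only 85.4% to 87.1% of these were whole within 0.1 read, no test on counts was run. Genes averaging 0.1 CPM or more entered the fit on log2(CPM + 0.1), which understates the fold changes of low genes. The model was limma-trend (limma 3.58.1, R 4.3.3), the one in the study's methods, with Benjamini-Hochberg adjustment. The fit was tested on simulated data. Single genes also had an exact two-sided permutation test. Lists are described by counts and medians, without a set test. Alternatives were other pseudocounts, filters, scalings and variance models, a term for Xist, a replicate block and omitting 1 library at a time. Counting errors cover the sampling of reads only.

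The members and the gene lists were chosen with earlier results of these data known. The genes named are the members, Rag1 and Xist, up to 5 genes per list by smallest p of at most 0.05 (otherwise the 2 most abundant), and the 5 genes nearest to Fkbp5, except that 1 gene is not reported here and that Plin4 and Arrdc2 were named after their values were seen. Marker genes are given as sums. Promoter sequences are RefSeq's on GRCm38.p6, the build of mm10.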

Additional observations from a re-analysis of the deposited data

How the results depend on the processing

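Sgk1, Tsc22d3, Cdkn1a and Pdk4 kept their sign in all 16 alternatives, with log2 fold changes of -1.503 to -0.99, -0.18 to -0.03, -0.98 to -0.03 and -0.38 to -0.19. Sgk1 passed an adjusted p of 0.05 with the Xist term (-1.503) and without WT replicate 1 (-1.44), and ranged from -1.44 to -0.99 with a library left out. Fkbp5 passed with the Xist term (-0.97), where the WT arm is WT replicate 3 alone, the library with the highest Fkbp5, so that this value restates that library's level. Fkbp5 ranged from -0.43 to 0.14 with a library left out, being positive only without WT replicate 3. The Xist term rests on that library for Sgk1 and all other values too. Leaving out a library also turned Zbtb16 (-0.39 to 0.086), Mt1 (-0.075 to 0.052), Mt2 (-0.15 to 0.062) and Nr3c1 (-0.073 to 0.061). Other signs that turned were Nr3c1 with quantile normalization (0.029), median-of-ratios rescaling (0.033) and the Xist term (0.11), Nr3c2 with the Xist term (0.070), and Mt1 with quantile normalization (0.011) and median-of-ratios rescaling (0.025). What causes these turns was not tested.

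The 2 members with an unadjusted p of at most 0.05 became 1 with quantile normalization (8.92% of all tested genes), median-of-ratios rescaling (9.18%), ordinary per-gene variance (10.6%) or the replicate block (8.1%), 7 with the Xist term (16.3%), and 1 to 3 with a library left out (6.65% to 12.1%). It was 1 without WT replicate 2, WT replicate 3, or replicate 2 or 3 labelled Rag1-/-, Sgk1 passing each time. Members without overlap numbered 1 to 3 of 10 with a library left out, where 25.1% to 31.0% of all tested genes did not overlap: 2 without WT replicate 1 (27.1% of all genes) or replicate 1 labelled Rag1-/- (25.1%), namely Sgk1 and Pdk4, and 3 without WT replicate 3 (30.8%), namely Sgk1, Nr3c2 and, higher, Fkbp5. The 12 lower genes among 27 other glucocorticoid-induced ones, counted under alternatives chosen after the data were seen, became 3 with ordinary per-gene variance (8.35% of all tested genes were lower), 21 with the Xist term (12.3%), 11 with the replicate block (6.59%) and 8 to 17 with a library left out (5.2% to 9.75%). Over all tested genes, 8 with an adjusted p under 0.05 became 4 with pseudocount 0.01, no filter or a mean of at least 1 CPM, 5 with quantile normalization, 2 without the trend, 0 with ordinary per-gene variance (1938 had an unadjusted p of at most 0.05 by limma-trend), 3 with the replicate block, 134 with the Xist term and 2 to 24 with a library left out, the 24 without WT replicate 3. Replicate numbers were not treated as pairs in the main fit. Deviations from the group means correlated across genes by only 0.0926, -0.220 and -0.0183 between equal numbers, which cannot show that the samples were unpaired. The test on whole reads was not run, since whole reads were not recovered. Median-of-ratios rescaling moved the median of all genes from -0.05 to -0.0063.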
